A study of Penicillium oxalicum with 10 samples.

Results

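Genes that carry newly made proteins into and through the secretory pathway were followed in mycelium of the mould Penicillium oxalicum, known for releasing plant cell wall-degrading enzymes in quantity. The genes were selected by annotation text alone. A member is any gene whose product description or KEGG Orthology name contains a SEC protein transport term, signal peptidase, signal recognition particle, coatomer, syntaxin, SNARE, vesicle, exocyst, clathrin, ADP-ribosylation factor, translocon, oligosaccharyl or mannosyltransferase. This gave 91 of the 9859 genes in the deposited table, with 12 for entry to the endoplasmic reticulum (ER), 45 for glycosylation and 34 for vesicle steps. The product column reads hypothetical protein for 54 of them, so their identity rests on the KEGG name. 89 members passed the expression filter, a mean of at least 1 RPKM, which is a read count divided by coding length in kilobases and by library total, over all libraries. The 2 that did not were a further signal peptidase-type gene (PDE_00117) and a putative mannosyltransferase (PDE_09021). A cytochrome c oxidase assembly gene (PDE_07494) matched only through a second KEGG name and is counted as a glycosylation member.

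In fungi, a secreted protein is recognised by its signal peptide, threaded through the SEC61 channel into the ER, and trimmed by signal peptidase. In the ER it receives N-linked glycans from oligosaccharyltransferase and O-linked mannose from protein mannosyltransferases, and some proteins receive a glycosylphosphatidylinositol (GPI) anchor. COPII vesicles then carry it to the Golgi, COPI (coatomer) vesicles return material, ARF-type GTPases recruit coats, and SNAREs with the exocyst drive fusion at the hyphal tip.

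Digital gene expression sequencing of RNA gave 10 libraries, namely the wild type (strain M12) and 9 strains labelled as deletions of 1 regulator of asexual sporulation or development each (stuA, swi6, abaA, wetA, flbA, flbB, flbC, flbD and flbE). All were grown alike from conidia, for 20 h at 30 °C in a modified Czapek medium whose carbon source was 2% glucose and then for 48 h in fresh medium, and the labels give no other allele or treatment. The labels do not say how many independent transformants stand behind a strain. Each genotype is 1 library, so there is no replicate error and no test across libraries. A range in parentheses after a fold is the 95% interval that the reads alone give (exact, Clopper-Pearson) and covers counting error only. In mycelium fewer cells of a type and less RNA per cell cannot be told apart.

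Depth ran from 3.10 megareads (flbA deletion) to 7.60 megareads (library labelled flbD deletion), and the median kept member had 127 to 391 reads. FlbD itself (PDE_03008) stood at 327 RPKM in the library labelled flbD deletion against 341 in wild type. A TEA-family gene (PDE_02932), paired with abaA by family with its values known, stood at 59.1 RPKM in the library labelled abaA deletion against 28.5. Both go against the labels, so these libraries are called by their label throughout, and a direction given for them holds for the library as labelled. The level of the median kept gene differed from wild type by -0.64 (flbA deletion), -0.40 (flbB), -0.20 (labelled flbD), -0.40 (flbE) and -0.26 (wetA) on the log2(RPKM + 1) scale, and by at most 0.15 in size in the others. The SOK2 gene (PDE_04095), of StuA's protein family, and a chromobox gene (PDE_08896), of the family of fission yeast Swi6, each had 1 read in the stuA and swi6 deletion libraries respectively (pairings also made after the values were seen). A gene with no product name (PDE_06605) took 7.73% of the reads in wild type, 27.9% in the flbA deletion and 0.0738% in the stuA deletion. A second scaling by median of ratios, which sets the median gene near 0, is therefore given beside the first. It multiplies every ratio to wild type by 1.65 in the flbA deletion, 1.33 in flbB, 1.32 in flbE and 1.22 in wetA, and by 0.931 to 1.14 in the other 5. Levels called high, low, highest or lowest are on the RPKM scale, and by median of ratios the highest level of 47 and the lowest level of 55 of the 89 kept members lay in the same library.

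On the RPKM scale the wild type held the highest level of most genes that receive proteins at the ER. Of the 11 kept entry genes, 8 had their highest RPKM in wild type, against 17.9% of all kept genes. This count was 3 of 11 by median of ratios, against 12.3%, with 5 highest in the flbA deletion, against 25.9%. Over all 89 kept members the wild type was highest for 27 (13 by median of ratios) and the library labelled flbD deletion for 0 (1 by median of ratios). The labelled flbD library was highest for 3.13% of all kept genes (2.38% by median of ratios). The lowest level of a member lay most often in the flbA (32 members) and flbB (22 members) deletion libraries, which held the lowest level of 43.8% and 12% of all kept genes. With median-of-ratios scaling these were 14 and 17 members, against 28.3% and 6.996% of all kept genes. On that scale the flbA deletion held the highest level of 41 members, against 25.9% of all kept genes. The plot of all members by library shows these patterns gene by gene.

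**Figure D1:**
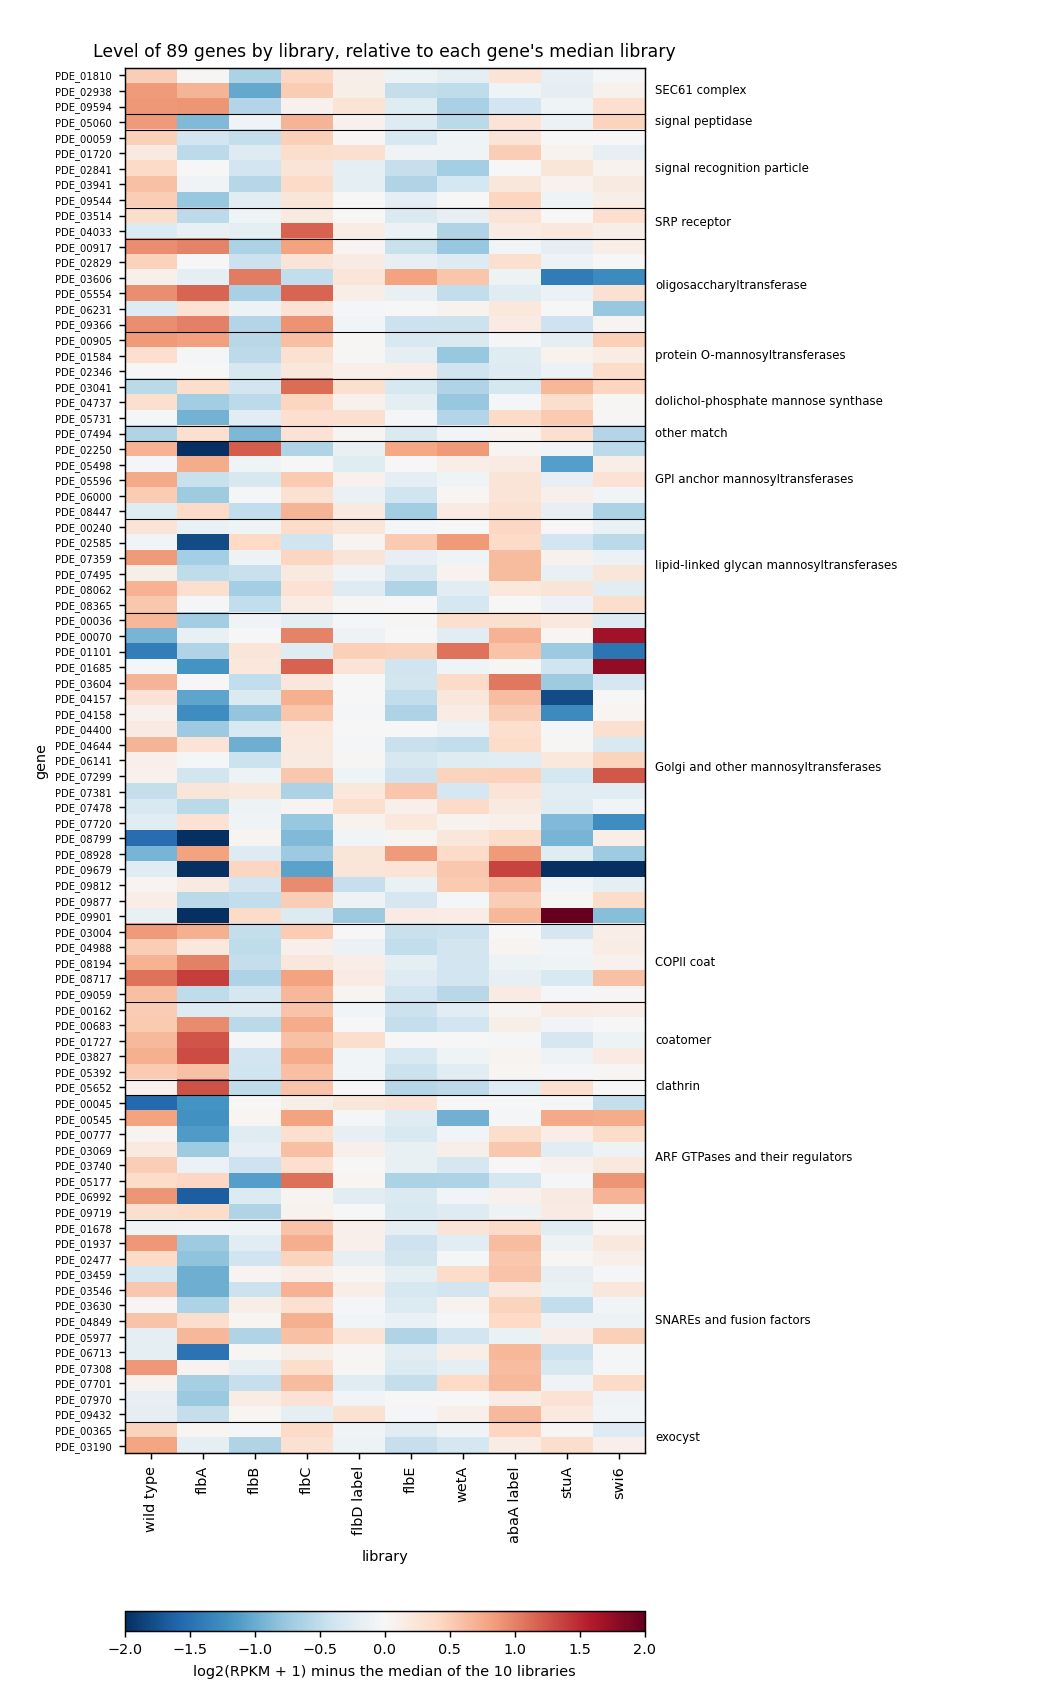
Level of each of the 89 kept members (rows, by group) in each of the 10 libraries (columns), as log2(RPKM + 1) minus that gene's median over the libraries; red is above and blue below. Most SEC61, oligosaccharyltransferase, protein O-mannosyltransferase, COPII and coatomer genes are red in wild type and blue in the flbB deletion library. Ribophorin I (PDE_03606), PDE_02250 and PDE_02585 are red in flbB. The SRP receptor beta subunit (PDE_04033), PDE_03041 and several Golgi mannosyltransferases are blue in wild type.

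Members were counted as higher or lower when at least 2-fold apart from wild type on the log2(RPKM + 1) scale, and each count is read against the share of all 9134 kept genes past the same fold. All comparisons share the 1 wild-type library. In the flbA deletion 2 of 89 members were at least 2-fold higher and 22 lower, against 9.8% and 37.4% of all kept genes, and by median of ratios 18 and 7 against 20.4% and 23.1%. In the flbB deletion 3 were higher and 23 lower, against 12% and 23%, and by median of ratios 7 and 11 against 17.5% and 12.7%. For flbE the counts were 5 higher and 22 lower against 10.9% and 21.2%, and by median of ratios 7 and 0 against 15.9% and 11.4%. The flbE count of lower members thus depends on the scaling to the read total.

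The wetA deletion had 4 members higher and 19 lower against 13.8% and 20.9% of all kept genes, and by median of ratios 7 and 8 against 18.1% and 14.7%. In the stuA deletion 3 were higher and 14 lower against 13.3% and 14.6%, or 5 and 9 against 15.8% and 11.7%. The swi6 deletion had 5 higher and 5 lower against 11% and 11.9%, or 6 and 3 against 13.5% and 9.45%. As shares of the 89 members, the lower counts were 25.8% in flbB, 24.7% in flbE, 21.3% in wetA and 15.7% in stuA, near the background. In flbA (24.7%) and swi6 (5.62%) they were below it.

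The flbC deletion had 6 higher and 1 lower against 14.6% and 8.85%, with the same counts by median of ratios (12.6% and 9.9%). The library labelled flbD deletion had 4 higher and 1 lower against 11.7% and 12.7%, or 5 and 0 against 14% and 9.61%. The library labelled abaA deletion had 6 higher and 3 lower against 15.2% and 12.3%, with the same counts by median of ratios (14.6% and 12.2%). On the RPKM scale the members' shares in these libraries, as in the flbA and swi6 deletions, lay below the background in both directions. On that scale the share of members higher lay below it in every deletion library. By median of ratios the share higher in the flbA deletion was 20.2% against 20.4%, near the background. Against the median of the other 9 libraries instead of wild type it was 10.1% against 8.10%, above it.

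By step, 4 of the 11 entry genes were at least 2-fold lower in each of the flbB, flbE and wetA deletions, and 0 were higher (2, 0 and 3 lower by median of ratios). Of the 34 vesicle members 10, 10 and 8 were lower in those libraries, and 1 (ARF-related protein 1) was higher (3, 0 and 2 lower by median of ratios). Of the 44 glycosylation members 9, 8 and 7 were lower and 2, 4 and 3 higher (6, 0 and 3 lower and 6, 6 and 5 higher by median of ratios). Set against the median kept gene, the medians of the steps were -0.53 (entry), 0.01 (glycosylation) and -0.39 (vesicle) in the flbB deletion. In the wetA deletion they were -0.43, 0.20 and -0.43, and in the flbA deletion -0.03, 0.24 and 0.14.

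**Figure D2:**
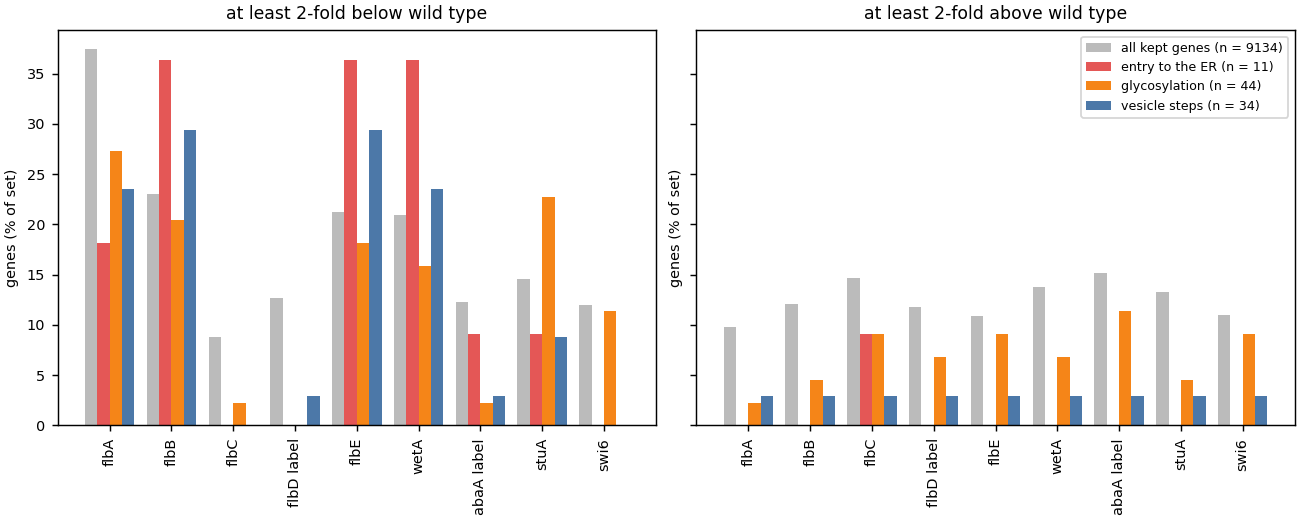
Share of genes at least 2-fold below (left) and above (right) wild type in each deletion library, for all 9134 kept genes (grey) and for the members of each step (colours); bars start at 0 and the number of genes per set is in the legend. Entry genes reach 36.4% lower in flbB, flbE and wetA against 23%, 21.2% and 20.9% of all genes, and each share of entry genes rests on 11 genes.

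SEC61 alpha (PDE_09594), the pore of the channel, had 138 RPKM in wild type, 140.2 in flbA, 49.9 in flbB, 80.2 in flbC, 91.1 in labelled flbD, 63.2 in flbE, 47.7 in wetA, 57.3 in labelled abaA, 70.6 in stuA and 95.4 in swi6. Wild type and the flbA deletion were the high pair, and the flbB and wetA deletions the low pair. The flbB deletion was 2.76-fold lower (2.48 to 3.08) than wild type, the wetA deletion 2.89-fold lower (2.59 to 3.24) and the library labelled abaA deletion 2.41-fold lower (2.17 to 2.67). With median-of-ratios scaling these were 2.08-fold lower, 2.36-fold lower and 2.43-fold lower, while the flbA deletion moved from 1.02-fold higher (0.919 to 1.12) to 1.68-fold higher.

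SEC61 beta (PDE_02938), a small subunit at the channel's side, had 88.5 RPKM in wild type, 78.2 in flbA, 23.5 in flbB, 69.5 in flbC, 52.9 in labelled flbD, 34.4 in flbE, 33.7 in wetA, 45.6 in labelled abaA, 42.1 in stuA and 51.6 in swi6. It was lowest in the flbB deletion, 3.77-fold lower (2.83 to 5.07) than wild type, and no deletion library reached the wild-type level (by median of ratios the flbA deletion did, 1.46-fold higher). SEC61 gamma (PDE_01810), which clamps the channel, had the highest level of the 3 subunits in every library, with 247 RPKM in wild type, 179 in flbA, 112 in flbB, 233 in flbC, 191 in labelled flbD, 164 in flbE, 153 in wetA, 213 in labelled abaA, 157 in stuA and 172 in swi6. Its range was the narrowest of the 3, and the flbB deletion was again lowest, 2.20-fold lower (1.804 to 2.68) than wild type. As a group the SEC61 genes had a median difference from wild type of -1.45 in the flbB and -1.37 in the wetA deletion on the log2(RPKM + 1) scale (-1.04 and -1.08 by median of ratios). In the flbA deletion the group's direction flipped with the scaling, from -0.18 to 0.54, and to 0.18 when PDE_06605 was left out of the read totals.

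Signal peptidase (PDE_05060), which cuts off the signal peptide, had 108 RPKM in wild type, 31.9 in flbA, 55.9 in flbB, 95.7 in flbC, 63.1 in labelled flbD, 49.5 in flbE, 40.4 in wetA, 72.03 in labelled abaA, 54.7 in stuA and 81.1 in swi6. It differed from SEC61 alpha in the flbA deletion, where its RPKM was the lowest of all libraries and 3.37-fold lower (2.54 to 4.55) than wild type (2.04-fold lower by median of ratios). The wetA deletion was next, 2.66-fold lower (2.19 to 3.24). By median of ratios the wetA deletion was the lowest library, 2.17-fold lower.

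The 5 subunits of the signal recognition particle (SRP), which binds the signal peptide as it leaves the ribosome, varied less. Their highest level was 1.98 to 2.41 times the lowest. SRP54 (PDE_09544), the subunit that grips the signal peptide, had 96.9 RPKM in wild type, 40.2 in flbA, 58.5 in flbB, 81.9 in flbC, 68.5 in labelled flbD, 60.3 in flbE, 69.0 in wetA, 92.6 in labelled abaA, 64.7 in stuA and 74.3 in swi6. The flbA deletion stood lowest, 2.41-fold lower (2.07 to 2.83) than wild type and 1.46-fold lower by median of ratios. SRP72 (PDE_03941), the partner of SRP68, ran from 27.8 RPKM in flbE to 64.3 in wild type, and SRP68 (PDE_02841) from 31.6 RPKM in wetA to 67.3 in wild type. SRP14 (PDE_01720), of the domain that pauses translation, ran from 35.8 RPKM in flbA to 73.2 in labelled abaA, and the assembly subunit SRP19 (PDE_00059) from 19.6 RPKM in flbB to 38.8 in wild type.

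The particle docks at the SRP receptor. The beta subunit of this receptor (PDE_04033), a membrane-bound GTPase, had a pattern of its own. It had 36.4 RPKM in wild type, 39.6 in flbA, 39.0 in flbB, 102 in flbC, 48.9 in labelled flbD, 40.4 in flbE, 28.8 in wetA, 49.4 in labelled abaA, 51.4 in stuA and 48.1 in swi6. The flbC deletion alone exceeded the other libraries by a wide margin, 2.79-fold higher (2.34 to 3.34) than wild type and 2.60-fold higher by median of ratios. The alpha subunit (PDE_03514) ran from 29.3 RPKM in flbA to 54.9 in wild type, and in the flbC deletion it was 1.14-fold lower (0.999 to 1.29) than wild type. For the alpha subunit the interval held equality.

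**Figure D3:**
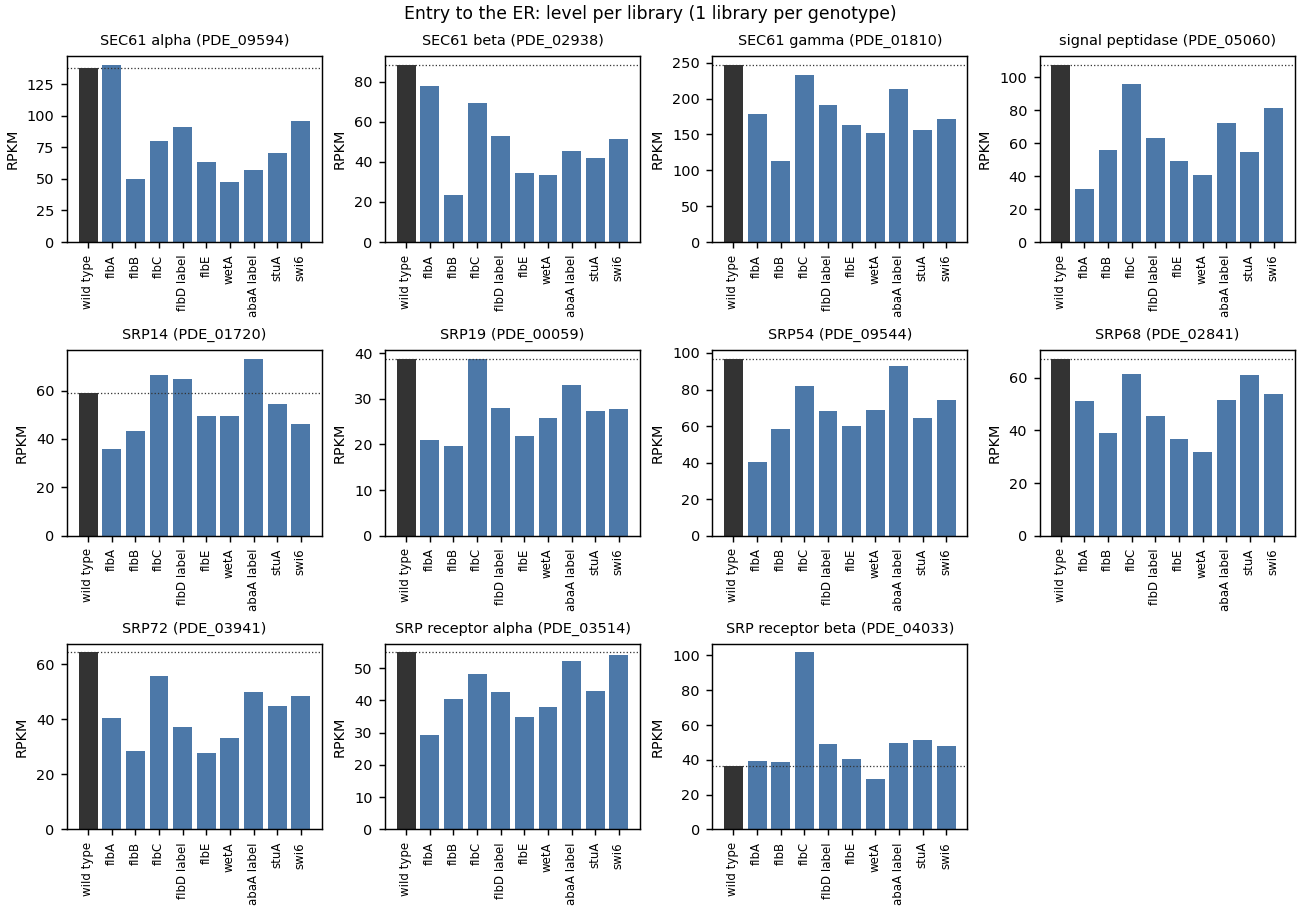
RPKM of the 11 kept genes of ER entry in the 10 libraries, 1 panel per gene with its own axis from 0; the black bar and dotted line are wild type and no bar has an error because each genotype is 1 library. On this RPKM scale wild type is the tallest bar in 8 panels (3 by median of ratios), the flbA deletion is close to it for SEC61 alpha but is the shortest for signal peptidase, and the SRP receptor beta subunit is tallest in the flbC deletion.

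6 genes of the same steps lie outside the annotation wording and were added after their values were seen. They are SEC62 (PDE_03251) and SEC63 (PDE_00532), which drive import after translation, a pair named SEC72 (PDE_09694 and PDE_09695), SAR1 (PDE_02951), the GTPase that starts the COPII coat, and SEC66 (PDE_00942), a partner of SEC62 and SEC63 in budding yeast. SEC66 ran from 39.7 RPKM in flbB to 89.7 in wild type, SEC63 from 49.0 RPKM in stuA to 98.8 in wild type, SEC62 from 45.9 RPKM in stuA to 105 in wild type and SAR1 from 149 RPKM in flbE to 264 in wild type. The SEC72 pair ran from 38.8 RPKM in flbB to 86.6 in flbC (PDE_09694) and from 46.6 RPKM in stuA to 89.2 in labelled abaA (PDE_09695). Their median difference from wild type was -1.02 in the flbB deletion, where 3 of 6 were at least 2-fold lower, against 23% of all kept genes (0 of 6 by median of ratios).

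In the flbB and wetA deletions the folding enzymes of the ER lumen differed further from wild type than the channel. Their median over 5 genes was -1.77 in flbB and -1.87 in wetA (-1.36 and -1.58 by median of ratios). The same held in flbE and labelled abaA, with medians of -1.53 and -1.60 (-1.14 and -1.61 by median of ratios). Set against the median kept gene, the folding median was lowest in labelled abaA, at -1.62. Protein disulfide isomerase A1 (PDE_06215), which forms disulfide bonds in secreted proteins, had 623 RPKM in wild type, 196 in flbA, 83.8 in flbB, 191 in flbC, 197 in labelled flbD, 141.9 in flbE, 83.0 in wetA, 109.6 in labelled abaA, 176 in stuA and 324 in swi6. Wild type stood above every deletion library, and the flbB and wetA deletions were 7.43-fold lower (6.93 to 7.99) and 7.50-fold lower (6.98 to 8.08). Calnexin (PDE_08629), the lectin that holds glycoproteins during folding, had 156 RPKM in wild type, 240.4 in flbA, 42.0 in flbB, 63.5 in flbC, 78.7 in labelled flbD, 53.2 in flbE, 41.8 in wetA, 50.8 in labelled abaA, 52.2 in stuA and 90.7 in swi6. It was highest in the flbA deletion, 1.54-fold higher (1.43 to 1.67) than wild type (2.55-fold higher by median of ratios), and lowest in flbB and wetA. The gene named plainly as protein disulfide isomerase (PDE_03829) varied least, from 50.4 RPKM in flbE to 79.5 in wild type. The disulfide isomerases A6 ran from 19.3 RPKM in labelled abaA to 119 in flbA (PDE_02993) and from 33.3 RPKM in flbB to 109 in flbC (PDE_07464). Of the 5 folding genes, 4 were at least 2-fold lower in the flbB, 4 in the wetA, 3 in the flbE deletion and 3 in the library labelled abaA deletion (23%, 20.9%, 21.2% and 12.3% of all kept genes), with the same counts by median of ratios, and 0 were higher in any of these.

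The ER chaperone BiP (PDE_08980, an Hsp70), named here after its values were seen, went the other way. It had 295 RPKM in wild type, 792 in flbA, 988 in flbB, 334 in flbC, 865 in labelled flbD, 1113 in flbE, 619 in wetA, 546 in labelled abaA, 436 in stuA and 181 in swi6. The flbE and flbB deletions were 3.77-fold higher (3.63 to 3.92) and 3.35-fold higher (3.22 to 3.48) than wild type, and the swi6 deletion was the 1 library below it, 1.63-fold lower (1.54 to 1.73). HAC1 (PDE_01436), the transcription factor of the unfolded protein response, ran from 78.3 RPKM in flbB to 192 in flbA. IRE1 (PDE_04467), the sensor kinase above HAC1, ran from 118 RPKM in wild type to 185 in labelled flbD. BiP was above wild type and PDI A1, calnexin and SEC61 alpha below in the flbB, flbE, wetA and labelled abaA libraries, under both scalings. On the RPKM scale the same directions held in the flbC, labelled flbD and stuA libraries. Splicing of the HAC1 transcript was not measured.

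For ER-associated degradation, which removes misfolded proteins, the ubiquitin ligase synoviolin (PDE_06321) ran from 10.9 RPKM in flbB to 47.8 in wild type. The Derlin genes split. PDE_02299 ran from 16.3 RPKM in flbB to 47.1 in flbC, while PDE_01104 had 15.2 RPKM in wild type and 58.2 in the wetA deletion, 3.83-fold higher (2.88 to 5.17).

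Oligosaccharyltransferase joins the finished glycan to the protein. Its catalytic subunit (PDE_00917) had 31.5 RPKM in wild type, 32.9 in flbA, 10.01 in flbB, 28.8 in flbC, 16.6 in labelled flbD, 11.5 in flbE, 9.08 in wetA, 15.4 in labelled abaA, 13.9 in stuA and 17.7 in swi6. Wild type, flbA and flbC formed a high group, and the wetA, flbB and flbE deletions were lowest, the wetA deletion 3.47-fold lower (2.84 to 4.26) than wild type. The beta subunit (PDE_09366) had 44.5 RPKM in wild type, 46.9 in flbA, 14.9 in flbB, 43.5 in flbC, 21.9 in labelled flbD, 16.7 in flbE, 16.8 in wetA, 25.6 in labelled abaA, 16.9 in stuA and 23.9 in swi6. The delta subunit, ribophorin II (PDE_05554), had 25.0 RPKM in wild type, 29.3 in flbA, 7.67 in flbB, 29.5 in flbC, 13.8 in labelled flbD, 11.2 in flbE, 8.69 in wetA, 10.5 in labelled abaA, 11.5 in stuA and 15.8 in swi6. Both shared the high group of the catalytic subunit, with wild type, flbA and flbC above the other 7 libraries, though not always in the same order.

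Ribophorin I (PDE_03606), the alpha subunit of the same complex, had 43.4 RPKM in wild type, 35.6 in flbA, 84.7 in flbB, 28.4 in flbC, 47.9 in labelled flbD, 71.6 in flbE, 60.4 in wetA, 37.9 in labelled abaA, 14.7 in stuA and 16.2 in swi6. It was highest in the flbB, flbE and wetA deletions and lowest in stuA and swi6. The beta and delta subunits were low in stuA too, at 16.9 and 11.5 RPKM. The flbB deletion was 1.95-fold higher (1.72 to 2.22) and the stuA deletion 2.95-fold lower (2.44 to 3.59) than wild type. By median of ratios these were 2.59-fold higher and 2.59-fold lower. The gamma subunit (PDE_06231), an oxidoreductase-like part, ran from 28.7 RPKM in swi6 to 60.8 in flbA, and the small epsilon subunit (PDE_02829) from 29.9 RPKM in flbB to 56.1 in wild type. In all, 3 of the 6 subunits were at least 2-fold lower in each of the flbB, flbE and wetA deletions and 4 in the stuA deletion, against 23%, 21.2%, 20.9% and 14.6% of all kept genes, and 0 were 2-fold higher in any library. By median of ratios the counts were 3, 0, 3 and 2, and 1 subunit became 2-fold higher in each of the flbA, flbB and flbE deletions.

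**Figure D4:**
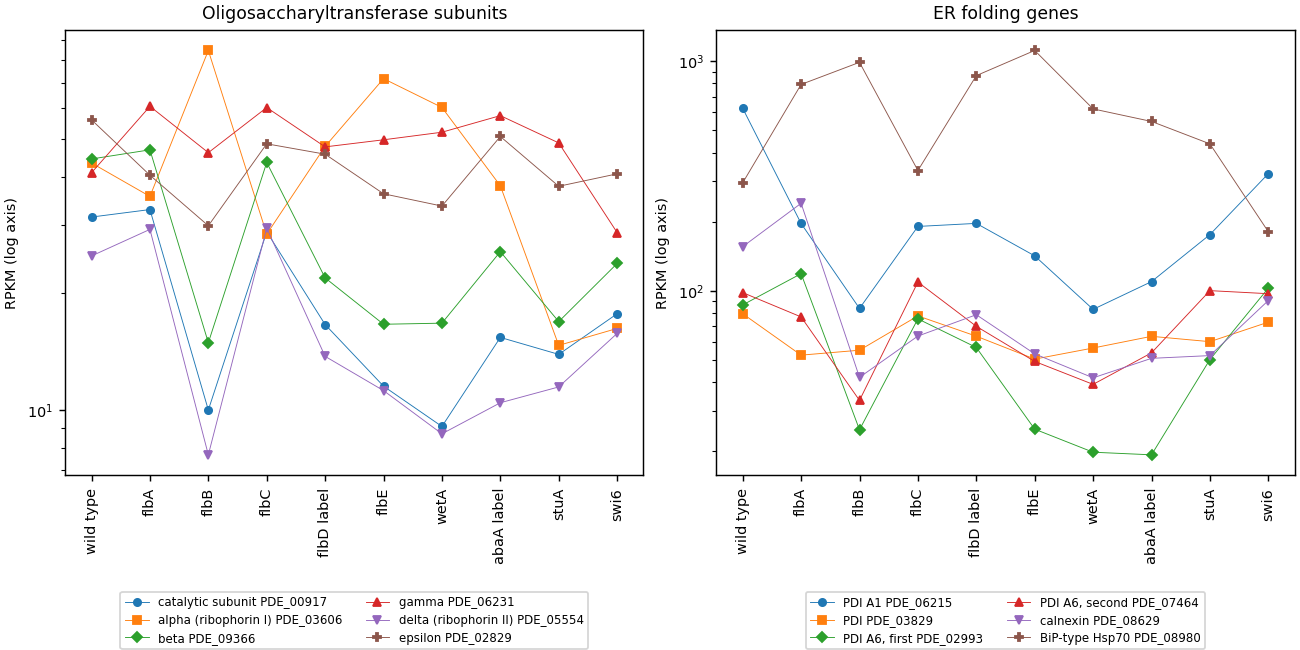
RPKM on a log axis in the 10 libraries for the 6 oligosaccharyltransferase subunits (left) and for 6 ER folding genes (right); thin lines join the values of 1 gene and stand for no order of the libraries. Ribophorin I peaks at 84.7 RPKM in the flbB deletion, where the catalytic, beta and delta subunits are at or near their lowest, and BiP lies above PDI A1 in all deletion libraries but swi6.

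Dolichol-phosphate mannose synthase makes the mannose donor used inside the ER. The catalytic gene (PDE_04737) ran from 59.4 RPKM in wetA to 137 in flbC, while its regulatory subunit (PDE_03041) had 56.1 RPKM in wild type, 105 in flbA, 62.9 in flbB, 178 in flbC, 103 in labelled flbD, 65.3 in flbE, 53.8 in wetA, 64.2 in labelled abaA, 130.8 in stuA and 111 in swi6. On the RPKM scale the flbC deletion was highest for the regulatory subunit, 3.18-fold higher (2.44 to 4.18) than wild type. For the catalytic gene the flbC deletion was 1.08-fold higher (0.951 to 1.24). By median of ratios the regulatory subunit was highest in the flbA deletion, 3.10-fold higher than wild type, and lowest in wild type. The stabilising subunit (PDE_05731) ran from 60.1 RPKM in flbA to 169 in stuA.

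Among the 6 mannosyltransferases that build the lipid-linked glycan, an alpha-mannosyltransferase (PDE_02585) of the class that adds mannose on the cytosolic face had the highest level and the widest range. It had 139 RPKM in wild type, 41.1 in flbA, 192 in flbB, 109 in flbC, 151 in labelled flbD, 208 in flbE, 263 in wetA, 189 in labelled abaA, 110.4 in stuA and 99.3 in swi6. The flbA deletion was 3.38-fold lower (2.93 to 3.92) than wild type (2.05-fold lower by median of ratios) and the wetA deletion 1.89-fold higher (1.77 to 2.03). The other 5 ranged over 1.51 to 3.05 times their lowest level, and the beta-mannosyltransferase that adds the first mannose (PDE_08062) ran from 4.33 RPKM in flbB to 12.7 in wild type. 2 members were at least 2-fold lower in each of the flbA, flbB and flbE deletions, against 37.4%, 23% and 21.2% of all kept genes, and 0 in the other 6 libraries. By median of ratios these counts were 1, 1 and 0.

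Of the protein O-mannosyltransferases, PDE_00905 had 79.6 RPKM in wild type, 78.1 in flbA, 29.5 in flbB, 66.7 in flbC, 44.7 in labelled flbD, 35.3 in flbE, 35.6 in wetA, 43.0 in labelled abaA, 38.5 in stuA and 61.7 in swi6. Wild type and flbA were again the high pair, and the flbB deletion was 2.70-fold lower (2.41 to 3.02). PDE_01584 ran from 59.3 RPKM in wetA to 128 in wild type and PDE_02346 from 87.0 RPKM in wetA to 148 in swi6. PDE_01584 and PDE_02346 were lowest in the wetA deletion, and PDE_00905 in the flbB deletion.

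The GPI genes matched here, apart from PDE_05596, are named for enzymes that add mannose to the anchor. PDE_02250, named for the enzyme of the fourth mannose, had 127 RPKM in wild type, 13.9 in flbA, 182 in flbB, 51.3 in flbC, 70.1 in labelled flbD, 134 in flbE, 142.03 in wetA, 80.9 in labelled abaA, 75.5 in stuA and 53.9 in swi6. Its range was the widest of the 5, with the flbA deletion 9.16-fold lower (7.16 to 11.9), or 5.54-fold lower by median of ratios, and the flbB deletion 1.43-fold higher (1.33 to 1.55) than wild type. PDE_06000 (first mannose) ran from 11.7 RPKM in flbA to 28.6 in wild type, PDE_08447 (second mannose) from 5.95 RPKM in flbE to 17.0 in flbC and PDE_05498 (the mannose after it) from 6.997 RPKM in stuA to 27.6 in flbA. PDE_05596, named for a subunit of the transamidase that attaches the anchor, ran from 13.4 RPKM in flbA to 32.2 in wild type. In the list of 11 other GPI anchor genes, 6 were at least 2-fold lower in each of the flbB and flbE deletions and 4 in the wetA deletion, against 23%, 21.2% and 20.9% of all kept genes, and 1 (PDE_00539, which acylates the anchor's inositol) was higher in flbE and wetA, as it also was in flbC, swi6 and labelled flbD. By median of ratios the lower counts were 3, 1 and 2.

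The 20 kept Golgi and other mannosyltransferases, which extend mannan and cell wall glycans, held the members with the widest ranges. PDE_01101, a putative alpha-1,6-mannosyltransferase, had 37.0 RPKM in wild type, 64.7 in flbA, 117 in flbB, 83.1 in flbC, 138 in labelled flbD, 136 in flbE, 211 in wetA, 147 in labelled abaA, 59.1 in stuA and 35.3 in swi6. Wild type and the swi6 deletion were lowest and the wetA deletion highest, 5.71-fold higher (4.93 to 6.64) than wild type. PDE_08799, of the same name, had 8.34 RPKM in wild type, 3.91 in flbA, 27.1 in flbB, 13.7 in flbC, 24.8 in labelled flbD, 27.1 in flbE, 30.4 in wetA, 33.7 in labelled abaA, 13.1 in stuA and 28.5 in swi6. It was 4.04-fold higher (2.94 to 5.66) in the library labelled abaA deletion and 3.25-fold higher (2.35 to 4.58) in the flbB deletion, and lower than wild type in flbA only, 2.13-fold lower (1.13 to 4.30), or 1.29-fold lower by median of ratios.

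PDE_00070, another putative alpha-1,6-mannosyltransferase, had 12.2 RPKM in wild type, 21.8 in flbA, 24.2 in flbB, 49.3 in flbC, 22.5 in labelled flbD, 24.3 in flbE, 20.5 in wetA, 40.0 in labelled abaA, 24.9 in stuA and 80.1 in swi6. The swi6 deletion exceeded every other library, 6.57-fold higher (5.18 to 8.44) than wild type, and the flbC deletion was next. PDE_01685, an alpha-1,2-mannosyltransferase, was also highest in swi6 (26.0 RPKM) and then flbC (16.8 RPKM), against 2.41 to 8.42 in the other 8 libraries. In no other library was it 2-fold above wild type.

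PDE_09901, a putative alpha-mannosyltransferase, had 10.2 RPKM in wild type, 1.75 in flbA, 15.2 in flbB, 9.28 in flbC, 6.502 in labelled flbD, 12.9 in flbE, 12.7 in wetA, 18.7 in labelled abaA, 54.7 in stuA and 5.90 in swi6. The stuA deletion stood apart, 5.35-fold higher (4.32 to 6.68) than wild type. PDE_09679, a putative alpha-1,3-mannosyltransferase and the member with the widest range, had 13.4 RPKM in wild type, 1.23 in flbA, 21.8 in flbB, 7.07 in flbC, 19.0 in labelled flbD, 19.4 in flbE, 23.8 in wetA, 42.5 in labelled abaA, 3.23 in stuA and 1.09 in swi6. It was low in the flbA, stuA and swi6 deletions, the swi6 deletion 12.3-fold lower (5.96 to 29.2) and the library labelled abaA deletion 3.17-fold higher (2.52 to 4.03) than wild type.

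PDE_04157 and PDE_04158, mannosyltransferases with consecutive locus numbers, were both lowest in the stuA deletion and highest in flbC. PDE_04157 had 51.1 RPKM in wild type, 19.5 in flbA, 34.0 in flbB, 69.1 in flbC, 41.7 in labelled flbD, 29.3 in flbE, 48.8 in wetA, 64.5 in labelled abaA, 11.4 in stuA and 41.9 in swi6, and PDE_04158 had 32.7 RPKM in wild type, 12.4 in flbA, 17.4 in flbB, 45.6 in flbC, 30.2 in labelled flbD, 19.8 in flbE, 34.3 in wetA, 43.9 in labelled abaA, 12.1 in stuA and 31.6 in swi6. The stuA deletion was 4.46-fold lower (3.57 to 5.63) and 2.70-fold lower (2.17 to 3.36) than wild type. The most abundant member of the group (PDE_07478) varied over 1.91-fold, from 129.7 RPKM in flbA to 248 in wetA. The mannan polymerase subunit MNN9 (PDE_04644) ran from 6.49 RPKM in flbB to 22.6 in wild type, and ANP1 (PDE_07720), of a related complex, from 7.53 RPKM in swi6 to 23.5 in flbA. PDE_00036, named for a phosphatidylinositol mannoside enzyme, ran from 14.1 RPKM in flbA to 37.4 in wild type. The highest level of the other 7 was 1.84 to 3.88 times the lowest, and PDE_07299 among them was highest in the swi6 deletion at 150.2 RPKM against 67.1 in wild type. The oxidase assembly gene that matched by its second name (PDE_07494) ran from 6.63 RPKM in flbB to 17.0 in stuA.

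Among the genes that trim glycans or build them earlier, an alpha-1,2-mannosidase (PDE_00333) had 539 RPKM in wild type, 8.20 in the flbA deletion and 105 to 134 in the other 8. The flbA deletion was 65.8-fold lower (48.0 to 92.6) than wild type and 39.8-fold lower by median of ratios. The UDP-GlcNAc transferase that starts the lipid-linked glycan (PDE_03099) ran from 0.201 RPKM in stuA to 6.75 in flbC. Of the 9 genes in this list, 5 were at least 2-fold lower in each of the flbB, flbE and wetA deletions, against 23%, 21.2% and 20.9% of all kept genes, and by median of ratios 4, 4 and 2.

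COPII coats bud from the ER with cargo. SEC31 (PDE_08717), of the outer cage, had 79.6 RPKM in wild type, 98.5 in flbA, 23.9 in flbB, 65.4 in flbC, 41.6 in labelled flbD, 30.9 in flbE, 28.4 in wetA, 33.2 in labelled abaA, 29.8 in stuA and 56.4 in swi6. The flbA deletion was highest, 1.24-fold higher (1.15 to 1.34) than wild type (2.05-fold higher by median of ratios), and the flbB deletion lowest, 3.34-fold lower (3.04 to 3.67). SEC23 (PDE_03004), the activator of SAR1 in the inner coat, had 154 RPKM in wild type, 139 in flbA, 60.9 in flbB, 121 in flbC, 85.3 in labelled flbD, 61.7 in flbE, 62.9 in wetA, 84.1 in labelled abaA, 66.9 in stuA and 92.4 in swi6. Wild type and flbA were highest, and flbB, flbE, wetA and stuA lay within 60.9 to 66.9 RPKM.

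SEC13 (PDE_09059), the partner of SEC31 in the cage, had 151 RPKM in wild type, 69.3 in flbA, 77.7 in flbB, 157 in flbC, 103 in labelled flbD, 74.9 in flbE, 67.0 in wetA, 111 in labelled abaA, 97.7 in stuA and 100.3 in swi6. Unlike SEC31 it was low in the flbA deletion, 2.18-fold lower (1.86 to 2.56) than wild type (1.32-fold lower by median of ratios). The SEC24 genes, which choose cargo, ran from 33.0 RPKM in flbB to 94.0 in flbA for PDE_08194 and from 38.3 RPKM in flbB to 77.4 in wild type for PDE_04988. Of the 5 COPII genes, 3 were at least 2-fold lower in the flbB, 3 in the flbE deletion, 4 in wetA, 2 in stuA and 1 in each of the flbA deletion library and the library labelled abaA deletion. The same libraries had 23%, 21.2%, 20.9%, 14.6%, 37.4% and 12.3% of all kept genes lower. By median of ratios the counts were 1, 0, 1, 2, 0 and 1, and 2 were 2-fold higher in flbA. The group's median in the flbA deletion flipped with the scaling, from -0.15 to 0.57.

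The 5 coatomer subunits had their highest RPKM in the flbA deletion or the flbC deletion. Beta' (PDE_03827) had 69.8 RPKM in wild type, 106 in flbA, 32.1 in flbB, 71.0 in flbC, 40.5 in labelled flbD, 34.0 in flbE, 39.5 in wetA, 43.8 in labelled abaA, 39.1 in stuA and 47.1 in swi6. Alpha (PDE_01727) had 87.3 RPKM in wild type, 133 in flbA, 54.5 in flbB, 83.8 in flbC, 71.0 in labelled flbD, 55.5 in flbE, 54.9 in wetA, 54.4 in labelled abaA, 43.5 in stuA and 51.3 in swi6. The flbA deletion was 1.52-fold higher (1.38 to 1.66) for beta' and 1.52-fold higher (1.42 to 1.63) for alpha, and the median difference of the 5 subunits there was 0.43 (1.15 by median of ratios), against -0.64 for all kept genes. Epsilon (PDE_00162), the shortest subunit, went the other way there, 1.72-fold lower (1.43 to 2.08), and by median of ratios it was 1.04-fold lower. Beta (PDE_00683) ran from 36.7 RPKM in flbB to 106 in flbA and gamma (PDE_05392) from 50.5 RPKM in flbE to 104 in flbC.

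Clathrin heavy chain (PDE_05652), of the coat on Golgi and plasma membrane vesicles, had 69.2 RPKM in wild type, 159 in flbA, 45.5 in flbB, 96.9 in flbC, 64.8 in labelled flbD, 43.3 in flbE, 44.8 in wetA, 54.3 in labelled abaA, 81.7 in stuA and 65.4 in swi6. The flbA deletion was 2.30-fold higher (2.16 to 2.44) than wild type (3.80-fold higher by median of ratios), 1 of 2 members at least 2-fold higher there (18 by median of ratios). The other was a putative alpha-1,3-mannosyltransferase (PDE_08928) with 4.90 RPKM against 0.770, the latter from 6 reads.

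ARF1 (PDE_00777), the GTPase that recruits coatomer at the Golgi, was the most abundant member. It had 829 RPKM in wild type, 365 in flbA, 678 in flbB, 1006 in flbC, 712 in labelled flbD, 646 in flbE, 773 in wetA, 1019.9 in labelled abaA, 875 in stuA and 1032 in swi6. The flbA deletion stood below the other libraries, 2.27-fold lower (2.08 to 2.48) than wild type but 1.37-fold lower by median of ratios, while 3 of the coatomer subunits it recruits were 2-fold above wild type on that scale. ARL8 (PDE_06992), an ARF-like GTPase of lysosome transport in animals, had 175 RPKM in wild type, 29.8 in flbA, 78.9 in flbB, 98.6 in flbC, 82.0 in labelled flbD, 77.8 in flbE, 91.5 in wetA, 101 in labelled abaA, 108 in stuA and 153 in swi6. Its flbA level was 5.89-fold lower (4.41 to 8.03) than wild type and 3.57-fold lower by median of ratios.

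ARF-related protein 1 (PDE_00045), a Golgi GTPase, was the reverse of most members. It had 52.9 RPKM in wild type, 68.1 in flbA, 158 in flbB, 170.4 in flbC, 185 in labelled flbD, 191 in flbE, 159 in wetA, 157 in labelled abaA, 155 in stuA and 113 in swi6. Wild type was the lowest library, and all others but flbA (68.1 RPKM) held at least 113 RPKM. The flbE deletion was 3.62-fold higher (3.12 to 4.21) than wild type. ARF6 (PDE_05177), which acts at the plasma membrane in animals, had 96.5 RPKM in wild type, 99.9 in flbA, 34.0 in flbB, 161 in flbC, 76.6 in labelled flbD, 47.9 in flbE, 48.0 in wetA, 57.9 in labelled abaA, 72.2 in stuA and 138 in swi6. The flbC and swi6 deletions were high and the flbB deletion low, 2.84-fold lower (2.30 to 3.53). By median of ratios ARF6 was highest in the flbA deletion, 1.71-fold higher than wild type, and the flbB deletion was 2.14-fold lower. ARL2 (PDE_00545), known in animals for tubulin folding rather than vesicles, had 43.7 RPKM in wild type, 10.03 in flbA, 25.2 in flbB, 43.7 in flbC, 24.1 in labelled flbD, 20.7 in flbE, 12.2 in wetA, 23.9 in labelled abaA, 42.5 in stuA and 41.8 in swi6. It was low in the flbA and wetA deletions, the wetA deletion 3.59-fold lower (2.52 to 5.19). The Golgi GTPase ARL1 (PDE_03069) ran from 38.2 RPKM in flbA to 95.9 in flbC. The ARF GTPase-activating proteins ran from 15.0 RPKM in flbB to 30.4 in flbA (PDE_09719) and from 47.8 RPKM in flbB to 89.8 in wild type (PDE_03740).

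SNAREs pull vesicle and target membranes together. In the wetA deletion the 13 SNARE and fusion genes went both ways. Of these, 7 were above wild type and 2 at least 2-fold lower, against 20.9% of all kept genes lower. By median of ratios those 2 (PDE_01937 and PDE_07308) were 1.77-fold and 1.75-fold lower, and PDE_03459 was 2.02-fold higher. The median difference of the 13 genes from wild type there was 0.04 (0.33 by median of ratios and -0.05 with PDE_06605 left out of the totals), against -1.16 for COPII and -0.75 for coatomer. A VAMP4-type vesicle SNARE (PDE_03459) had 345 RPKM in wild type, 225 in flbA, 457 in flbB, 484 in flbC, 447 in labelled flbD, 392 in flbE, 569 in wetA, 659 in labelled abaA, 394 in stuA and 437 in swi6. VTI1 (PDE_06713), a Golgi and endosome SNARE, had 207 RPKM in wild type, 84.0 in flbA, 238 in flbB, 255 in flbC, 239 in labelled flbD, 201 in flbE, 256 in wetA, 374 in labelled abaA, 174 in stuA and 232 in swi6. On the RPKM scale both were highest in the library labelled abaA deletion and lowest in flbA. VTI1 kept these libraries by median of ratios, while the VAMP4-type gene was highest in wetA and lowest in wild type.

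The plasma membrane syntaxin (PDE_05977), where secretory vesicles end, had 76.7 RPKM in wild type, 139 in flbA, 57.6 in flbB, 132.5 in flbC, 107 in labelled flbD, 57.5 in flbE, 67.1 in wetA, 80.2 in labelled abaA, 96.2 in stuA and 123 in swi6. It was high in the flbA and flbC deletions and lowest in flbE and flbB, the flbA deletion 1.81-fold higher (1.58 to 2.09) than wild type (2.998-fold higher by median of ratios). SEC22 (PDE_03546), which acts between ER and Golgi, ran from 35.8 RPKM in flbA to 116 in flbC, and SEC20 (PDE_01937), of the same route, from 11.8 RPKM in flbA to 37.1 in wild type. The Golgi syntaxin 5 (PDE_01678) ran from 46.0 RPKM in stuA to 81.9 in flbC. Syntaxin 7 (PDE_03630), syntaxin 16 (PDE_02477), syntaxin 8 (PDE_07701), a further syntaxin-family gene (PDE_09432) and VAMP7 (PDE_07970), of endosomes and late Golgi, had highest levels 2.09 to 2.62 times the lowest, and all had their lowest RPKM in the flbA deletion. Of these 5, 1 (syntaxin 16) was also lowest there by median of ratios. The SEC1-type regulator named syntaxin-binding protein 1 (PDE_07308) ran from 20.0 RPKM in stuA to 47.0 in wild type, and the fusion ATPase (PDE_04849), which recycles SNAREs, from 33.4 RPKM in flbE to 60.5 in flbC. The exocyst subunits, which tether vesicles at the plasma membrane, ran from 19.3 RPKM in flbB to 52.4 in wild type for component 7 (PDE_03190) and from 12.05 RPKM in swi6 to 20.3 in wild type for component 2 (PDE_00365).

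Rab GTPases, which mark vesicles for their target, are the next genes of the route. Rab-1A (PDE_09122), of ER to Golgi transport, had the widest range, with 638 RPKM in wild type, 1166 in the wetA deletion and 208 in the flbA deletion. The wetA deletion was 1.83-fold higher (1.73 to 1.93) and the flbA deletion 3.06-fold lower (2.74 to 3.42) than wild type (2.24-fold higher and 1.85-fold lower by median of ratios). Of 8 Rab and related genes, 2 were at least 2-fold lower in the flbA deletion, against 37.4% of all kept genes, and 0 were 2-fold apart in the other 8 libraries (by median of ratios 0 in flbA, and Rab-1A 2-fold higher in flbB and wetA). In the vacuolar sorting list, 5 of 19 genes were lower in each of the flbB and flbE deletions, 3 in flbA and 2 in wetA, against 23%, 21.2%, 37.4% and 20.9% of all kept genes, and 0 in any of these by median of ratios. That list also holds an AP-1-like transcription factor (PDE_03264) and a chromatin protein (PDE_06918).

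**Figure D5:**
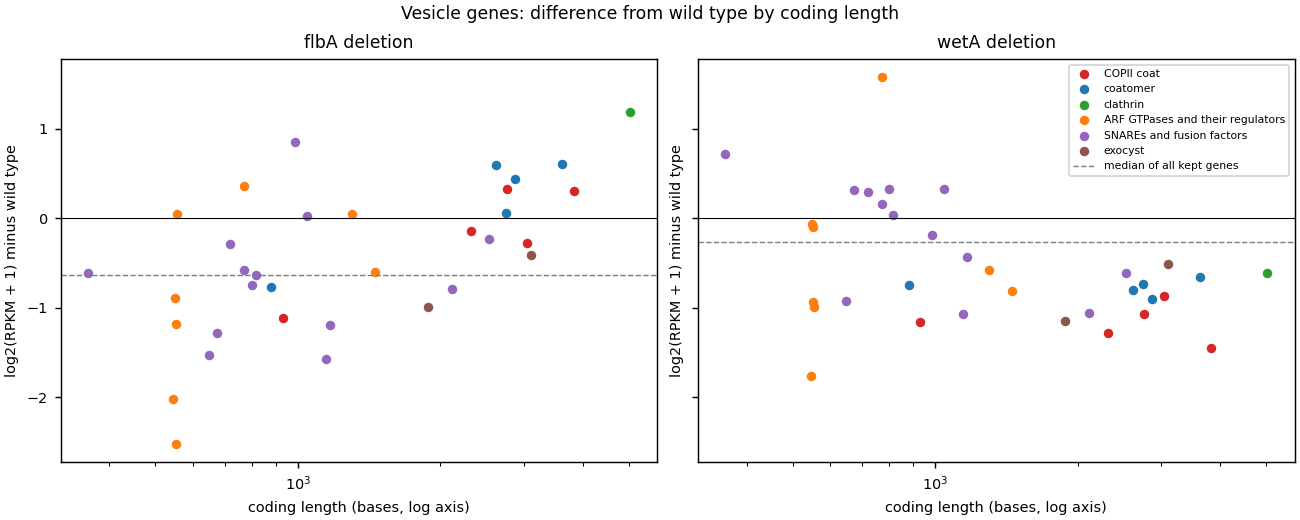
Difference from wild type in log2(RPKM + 1) of the 34 vesicle members in the flbA (left) and wetA (right) deletion libraries, by coding length in bases on a log axis; colours are groups and the dashed line is the median of all kept genes. In flbA the long coat subunits lie above the dashed line and most ARF GTPases and several SNAREs below it; in wetA the coats lie below it and most short SNAREs above it.

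Long and short genes differed in some libraries. In the flbA deletion the 13 vesicle members with a coding length over 1563 bases had a median difference from wild type of 0.05 and the 13 of at most 867 bases -0.75. Over all kept genes the same length classes had medians of -0.47 and -0.74. In the wetA deletion the vesicle medians were -0.87 for long and 0.04 for short members, and those of all kept genes -0.34 and -0.16. The part of length in the differences between coats, GTPases and SNAREs was not tested.

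Polysaccharide-degrading enzymes are among the proteins that pass through this pathway. Among 41 kept genes named as such enzymes, 16 of them chitinases, 21, 21 and 19 were at least 2-fold lower in the flbB, flbE and wetA deletions and 22 in the flbA deletion, while 11 were higher and 8 lower in the stuA deletion. Of all kept genes 23%, 21.2%, 20.9% and 37.4% were lower in the first 4, and 13.3% were higher and 14.6% lower in stuA. Without the chitinases the lower counts were 11, 11, 10 and 9 of 25, and in stuA 8 were higher and 3 lower. By median of ratios the lower counts over all 41 were 16, 17, 16 and 17, and 12 were higher in stuA. On the RPKM scale the count of higher genes among the 41 ran from 1 to 11 over the deletion libraries. In the flbA deletion PDE_01573, PDE_03711, PDE_09478 and PDE_02418 were among the genes of this list above wild type. Their differences were 6.57, 4.68, 4.51 and 4.49 on the log2(RPKM + 1) scale (7.28, 5.39, 5.18 and 5.18 by median of ratios). A glucoamylase (PDE_09417), which releases glucose from starch, is 1 gene of this list, named after its values were seen. It does not stand for the list, since the genes just named went the other way in the flbA deletion. This glucoamylase had 1681 RPKM in wild type, 22.5 in the flbA and 1384 in the stuA deletion. SEC61 alpha had 138, 140.2 and 70.6 RPKM in the same libraries. In the flbA deletion the enzyme was 74.8-fold lower (63.1 to 89.5) than wild type and the channel gene 1.02-fold higher (0.919 to 1.12), or 45.3-fold lower and 1.68-fold higher by median of ratios. In the stuA deletion the enzyme was 1.21-fold lower (1.19 to 1.24) with the channel gene 1.95-fold lower (1.77 to 2.15).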

How the data were processed

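CASAVA 1.8 was used, per the submitters' processing notes, while aligner, build and annotation were not given in the sources used here. The authors deposited, per gene and library, a count of reads, the coverage of the gene in percent and the RPKM. RPKM recomputed from counts, coding lengths and totals differed by a relative gap of at most 2.57e-08. A dash was read as 0, and the percent coverage was not used.

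Members and related lists were found by text, related lists by whole words. The members, lists and rules were chosen with earlier results of these data known, and SEC62, SEC63, SEC66, SEC72, SAR1, BiP, HAC1 and IRE1 were added after their values were seen, as were the genes named from the related lists. Differences are log2(RPKM + 1) in a deletion minus that in wild type, over 9134 genes averaging at least 1 RPKM (725 were removed), and 2-fold was the rule for a count. The pseudocount of 1 makes differences of weakly expressed genes smaller. Folds are RPKM ratios with exact conditional (Clopper-Pearson) 95% intervals, which cover counting error only, since each genotype is 1 library. The reads carry no molecular identifiers. Named were, per step, the 4 members with the highest mean and the 4 with the widest range, per deletion the 3 highest and 3 lowest with at least 10 RPKM in the higher library, and the complexes as wholes. Related genes and other members are given by ranges. Alternatives were pseudocounts of 0.1 and 5, no filter, median-of-ratios scaling, totals without PDE_06605, counting intervals wholly past 2-fold, a reference made from the other libraries' median, and leaving out the incidental match. Python 3.11.15, numpy 2.4.6, pandas 2.3.3, scipy 1.17.1 and matplotlib 3.10.9 were used, and the counting step was checked on simulated data.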

Additional observations from a re-analysis of the deposited data

How the results depend on the processing

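Counts of members are given as the value reported and then the value under the alternative. With median-of-ratios scaling, higher members went from 2 to 18 (flbA), 3 to 7 (flbB), 3 to 5 (stuA) and 4 to 7 (wetA), and lower members from 22 to 7 (flbA), 23 to 11 (flbB), 1 to 0 (labelled flbD), 22 to 0 (flbE), 14 to 9 (stuA), 5 to 3 (swi6) and 19 to 8 (wetA). With PDE_06605 out of the totals, higher members went from 2 to 9 (flbA), and lower from 3 to 5 (labelled abaA), 22 to 13 (flbA) and 1 to 5 (labelled flbD). Against a reference made from the other 9 libraries' median instead of wild type, higher members went from 6 to 3 (labelled abaA), 2 to 9 (flbA), 4 to 0 (labelled flbD), 5 to 1 (flbE), 3 to 1 (stuA), 5 to 3 (swi6) and 4 to 1 (wetA), and lower from 3 to 0 (labelled abaA), 22 to 14 (flbA), 23 to 3 (flbB), 1 to 0 (labelled flbD), 22 to 0 (flbE), 14 to 5 (stuA) and 19 to 0 (wetA). With that reference the lower share of all kept genes was 3.92% in flbB, 3.08% in flbE and 5.59% in wetA. When the whole counting interval had to lie past 2-fold, higher went from 5 to 3 (swi6), and lower from 23 to 13 (flbB), 1 to 0 (labelled flbD), 22 to 9 (flbE), 14 to 9 (stuA), 5 to 3 (swi6) and 19 to 11 (wetA). A pseudocount of 0.1 took higher from 3 to 6 (stuA) and lower from 1 to 3 (labelled flbD), and one of 5 took higher from 2 to 1 (flbA) and 5 to 3 (flbE), and lower from 22 to 13 (flbE), 14 to 8 (stuA) and 5 to 3 (swi6). The cause was not tested. All 18 counts stayed within 1.5 times with no filter and without the incidental match. No paired analysis was possible because each genotype is 1 library, which also leaves no replicate to leave out.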
